A study of Mus musculus with 4 samples.

Results

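The CXC chemokines are small secreted proteins, named for a pair of cysteines with another residue between them, that attract leukocytes through G protein-coupled receptors. The 10 genes described here are Cxcl1, Cxcl2, Cxcl3, Cxcl5, Cxcl9, Cxcl10, Cxcl11, Cxcl12, Cxcl14 and Cxcl16. They were read on 4 one-colour mouse expression arrays through every probe whose accession is a RefSeq transcript of the gene. Probes were found for 9 of the 10 genes, 11 probes in all, among 37042 genes and unnamed transcripts on the array. For Cxcl11 the RefSeq table used here lists only a non-coding transcript, which no probe carries, so Cxcl11 is not analysed here, and whether the array reads it was not settled.

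The RNA came from primary chondrocytes of 6-day-old C57BL/6J mice in which both groups carried the same floxed Rela alleles. Rela fl/fl cells are called control cells below, and cKO cells (Prrx1-Cre; Rela fl/fl) also carried a Cre transgene under the Prrx1 promoter, which is active in limb mesenchyme before cartilage forms. Rela encodes p65, the subunit of the transcription factor NF-kB that most inflammatory signals act through. Cells of each genotype were cultured for 3 days with 10 ng ml−1 TNF, an inflammatory cytokine, or without it, and the number of mice behind each culture is not given in the sources used here. Each of the 4 conditions had 1 array, so the arrays give differences between 4 RNA samples with no error over animals or cultures and no p-value.

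By their receptors the members fall into classes. Cxcl1, Cxcl2, Cxcl3 and Cxcl5 carry the ELR motif, bind Cxcr2 and draw neutrophils, and their genes are textbook targets of NF-kB. Cxcl9, Cxcl10 and Cxcl11 are interferon-inducible, bind Cxcr3 and draw activated T cells. Cxcl12 is made by stromal cells without stimulation and acts through Cxcr4 and Ackr3. Cxcl14 is another homeostatic member, and Cxcl16 is made as a transmembrane protein that binds Cxcr6 and can be shed from the cell surface. Chondrocytes exposed to inflammatory cytokines are known to secrete several of the neutrophil chemokines.

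Signal is given below as the intensity of a spot relative to the 75th percentile of the array it is on. A probe was taken as detected where the scanner software flagged it as well above background, and the lowest such signal was 0.0527 and 0.0369 on the control arrays without and with TNF and 0.0259 and 0.0267 on the cKO-labelled arrays. A change was counted where the log2 difference reached 1 (2-fold) and the brighter spot was well above background. Where the dimmer spot was not well above background it was raised to the lowest detected signal of its array, and the difference is then written as "at least". Each member probe had 1 spot per array. The technical spread was therefore taken from 257 other probes that were printed 10 times on each array and well above background in all 10 spots. The SD of a difference between 2 single spots was 0.27 log2 units for spots with a log2 signal under −2 and 0.08 for those above 2. It covers spots of 1 array only, not labelling or culture.

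The 4 arrays shared a slide and a scan, and 50.9% to 58.1% of the probes were well above background. Rela itself was not lower on the cKO-labelled arrays. Its signal was 28.4 without and 34.9 with TNF in control cells and 34.0 and 40.2 on the cKO-labelled arrays. Whether its probe lies in the deleted part is not given in the sources used here, so the genotype remains a label, and "cKO-labelled" is written throughout. Xist, the RNA of the silenced X chromosome, gave 0.719 and 0.755 on the control arrays and was not well above background on either cKO-labelled array, while the Y-linked Ddx3y was higher there (3.67 and 4.24 against 1.31 and 1.30). The Y-linked Eif2s3y read 1.78 and 1.84 on the control arrays and 6.24 and 6.54 on the cKO-labelled ones. Both Y-linked genes were thus well above background on the control arrays too, beside Xist. Whether the control RNA came from both sexes was not tested. Sex and genotype label cannot be told apart in the differences between labels. All 12 chondrocyte markers and all 8 fibroblast markers were well above background on every array. Patches of bright neighbouring spots covered 1.04% to 10.7% of the spots of an array, and 1 member spot, that of Cxcl10 on the control array without TNF, lay in one. RNA was taken from whole cultures, in which fewer cells of a type and less RNA per cell cannot be told apart.

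**Figure D1:**
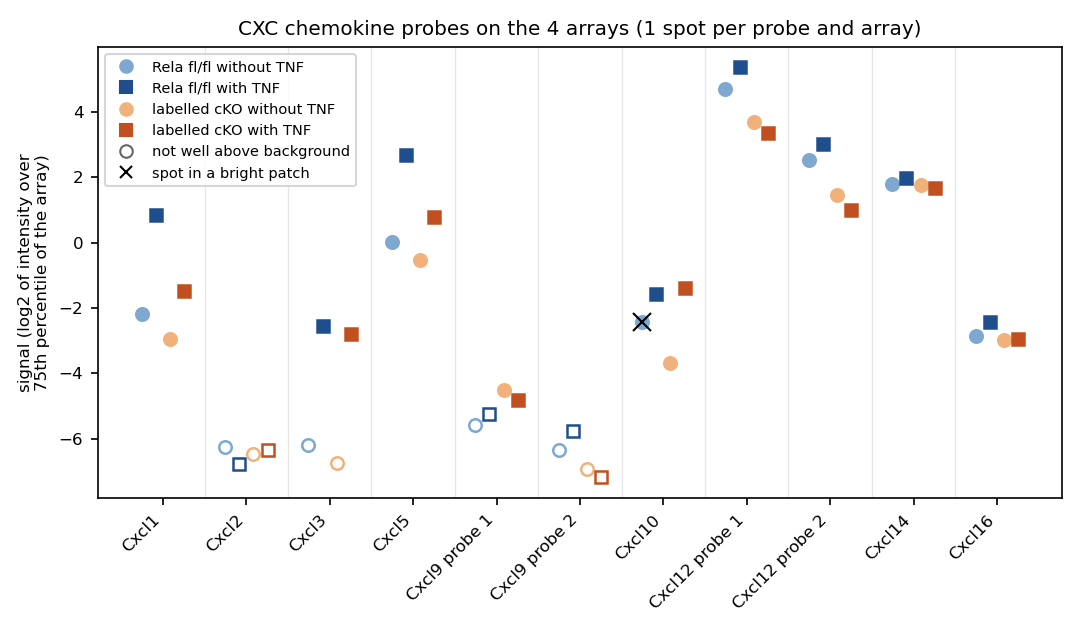
Log2 signal (intensity over the 75th percentile of the array) of the 11 probes of 9 CXC chemokines, with 1 point for each of the 4 arrays. Open symbols are not well above background and the cross marks the Cxcl10 spot in a bright patch. Cxcl1 and Cxcl5 were brightest in control (Rela fl/fl) cells with TNF, Cxcl3 was detected only on the arrays with TNF, and both Cxcl12 probes were brighter on the control arrays. Heights are to be compared within a probe, not between probes.

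In control cells, the neutrophil chemokines Cxcl1, Cxcl3 and Cxcl5 were higher with TNF and no member was lower. These were 3 of the 7 members compared, a member being compared if either array showed it well above background. Cxcl3 entered through the array where it was high, and with both arrays required to be well above background 2 members were higher, beside 208 of 20623 genes. Over all genes the same limit was passed upwards by 2.39% and downwards by 4.27% of 23408, and with patches left out by 99 and 119 of 17723. The same number of members was higher there. The median log2 difference of the 6 members detected on both arrays was 0.76, against 0.01 over all such genes. Among 11538 genes with a symbol and no spot in a patch, the change of Cxcl1 was the 5th largest and that of Cxcl5 the 8th. Over all genes compared they were the 148th and the 200th.

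Cxcl1 (NM_008176), also called KC, gave a signal of 0.221 in control cells without TNF and 1.78 with TNF, and 0.129 and 0.361 on the cKO-labelled arrays. The control array with TNF stood far above the other 3, and the cKO-labelled array with TNF was the next. With TNF the signal was 8.03-fold higher in control cells (log2 difference 3.00, technical SD 0.20) and 2.80-fold higher on the cKO-labelled arrays (1.48, technical SD 0.22). The log2 change there was 49.4% of that in control cells.

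Cxcl5 (NM_009141), also called LIX, followed the same order of arrays. Control cells gave 1.02 without and 6.36 with TNF, and the cKO-labelled arrays 0.686 and 1.72. This was a 6.23-fold difference with TNF in control cells (log2 difference 2.64, technical SD 0.09) and a 2.50-fold one on the cKO-labelled arrays (1.32, technical SD 0.12). Its log2 change on the latter was 50.2% of that in control cells, next to the 49.4% of Cxcl1.

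Cxcl3 (NM_203320), the close relative of Cxcl1 and Cxcl2, was detected on the arrays with TNF and on neither array without it. Its signal with TNF was 0.171 in control cells and 0.145 on the cKO-labelled array. The arrays without TNF read 0.0136 and 0.00926, under the lowest detected signals. The difference was at least 3.24-fold in control cells (log2 at least 1.70) and at least 5.61-fold on the cKO-labelled arrays (log2 at least 2.49). The bounds rest on different lowest detected signals (0.0527 and 0.0259), so their order says nothing of which change was larger. With TNF, Cxcl3 differed by −0.24 log2 units between the genotype labels, within the technical SD of 0.27, where Cxcl1 and Cxcl5 differed by more than 1.5 log2 units. With normexp background correction the log2 differences of Cxcl3 were 0.99 and 0.93, just under the limit.

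Cxcl2 (NM_009140), also known as MIP-2, was not well above background on any array, with readings from 0.00907 to 0.0132. No difference is given for it, since both arrays of every comparison were dim.

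Cxcl1, Cxcl2 and Cxcl3 lie in 1 cluster on chromosome 5, in the order Cxcl5, Ppbp, Pf4, Cxcl3, Cxcl15, Cxcl1, Cxcl2. The 160 bases before their annotated starts are shown here because each holds the same run, GGGAATTTCCC, on which the NF-kB consensus matches on both strands. Capitals mark every match to that consensus (10 letters) and to the shorter motif GGNNNTTCC on either strand, the latter overlapping the former. Sequences are those of the RefSeq promoter table of GRCm38.p6, 5′ to 3′ on the strand of the gene, at chr5:90891085-90891244 for Cxcl1, chr5:90903739-90903898 for Cxcl2 and chr5:90785941-90786100 for Cxcl3, all on the plus strand.
Cxcl1: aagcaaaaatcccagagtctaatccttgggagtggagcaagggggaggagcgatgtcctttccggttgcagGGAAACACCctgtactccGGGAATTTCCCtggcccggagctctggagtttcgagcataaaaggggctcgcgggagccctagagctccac
Cxcl2: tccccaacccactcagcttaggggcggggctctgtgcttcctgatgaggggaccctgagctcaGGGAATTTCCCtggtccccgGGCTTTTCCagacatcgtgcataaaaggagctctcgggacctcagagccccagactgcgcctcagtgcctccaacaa
Cxcl3: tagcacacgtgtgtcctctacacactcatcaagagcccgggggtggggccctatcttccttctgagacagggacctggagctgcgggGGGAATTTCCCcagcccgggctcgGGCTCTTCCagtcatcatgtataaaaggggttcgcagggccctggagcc
Counted from the base before the start as −1, the run begins at −71 in Cxcl1, −97 in Cxcl2 and −73 in Cxcl3. Cxcl1 holds 1 further match to GGNNNTTCC, on the strand opposite the gene and upstream of the run, and Cxcl2 and Cxcl3 each hold 1 downstream of it. Over the 250 bases before the start, 3.90% of 32851 promoters hold the NF-kB consensus and 15.7% hold GGNNNTTCC. The run was thus present in Cxcl2, which was not detected, as well as in Cxcl1 and Cxcl3, which were higher with TNF. The table holds a promoter for 7 of the 10 members, and Cxcl5, Cxcl11 and Cxcl16 are without one.

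On the cKO-labelled arrays, 4 of 8 members compared were higher with TNF (Cxcl1, Cxcl3, Cxcl5 and Cxcl10) and 0 were lower. Cxcl3 again entered through the array where it was high, and with both arrays required to be well above background 3 members were higher, beside 100 of 22496 genes. Over all 24903 genes compared, 1.02% were higher and 4.46% lower. Of the changed genes 18.7% were higher. This share was 29.6% with quantile normalization, 10.8% with normexp background correction, 12.3% without scaling, 12.0% for the values the authors scaled and 36.6% with patches left out. With patches left out 174 genes were higher and 301 lower, and 3 members were higher, since Cxcl10 was left out for its spot on the control array. The median over the 7 members detected on both arrays was 0.05 log2 units, against 0.06 over all genes. Among 13181 genes with a symbol and no spot in a patch, the change of Cxcl10 was the 14th largest, that of Cxcl1 the 37th and that of Cxcl5 the 52nd. Over all genes compared they were the 37th, 96th and 118th. The TNF comparisons of the 2 genotype labels share no array.

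**Figure D2:**
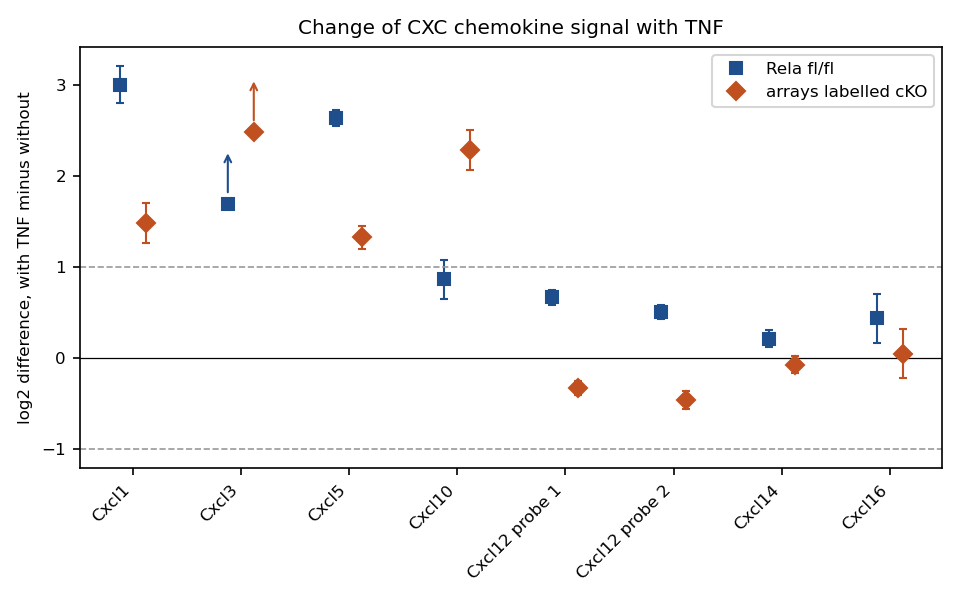
Log2 difference with TNF minus without, in control (Rela fl/fl) cells (squares) and on the cKO-labelled arrays (diamonds), for the member probes detected on at least 1 array of each comparison. Bars are the technical SD of a difference between 2 single spots, arrows mark lower bounds and dashed lines the limit of 1. Cxcl1 and Cxcl5 changed more in control cells (3.00 and 2.64 against 1.48 and 1.32), Cxcl10 changed more on the cKO-labelled arrays (2.28 against 0.86), and the Cxcl12 probes lay on opposite sides of 0.

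Of the interferon-inducible members with a probe, Cxcl10 was detected on every array and Cxcl9 on the cKO-labelled arrays only. Cxcl10 (NM_021274), known as IP-10, read 0.187 in control cells without TNF and 0.339 with TNF, and 0.0786 and 0.383 on the cKO-labelled arrays. The cKO-labelled array without TNF was the lowest, and the 2 arrays with TNF lay close to each other. The log2 difference with TNF was 0.86 (technical SD 0.22) in control cells, short of the limit, and 2.28 (4.87-fold, technical SD 0.22) on the cKO-labelled arrays. The spot on the control array without TNF had 14 bright neighbours within 11 rows and 5 columns and lay in a patch, and the part of the patch in the smaller difference was not tested. Both spots behind the 4.87-fold difference lay outside patches. That difference was 1.24 with normexp background correction.

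Cxcl9 (NM_008599), known as MIG, was read by a pair of probes. One was well above background on the cKO-labelled arrays, at 0.0443 without TNF and 0.0357 with TNF, and not on the control arrays, where it read 0.0211 and 0.0267. Each detected signal was under the lowest one well above background on the control array of the same treatment, so no fold between the labels is given. The log2 difference with TNF on the cKO-labelled arrays was −0.31 (technical SD 0.27). The other probe was not well above background on any array.

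Cxcl9 and Cxcl10 are neighbours on chromosome 5, with Art3 between them and Cxcl11 next to Cxcl10. Their promoters are shown because they differ in the same capitals as above. Cxcl10 (chr5:92348890-92349049, minus strand, GRCm38.p6) holds 2 matches to the NF-kB consensus, GGGAAATTCC from −159 and GGGACTTCCC from −103. Cxcl9 (chr5:92328080-92328239, minus strand) holds 2 matches to GGNNNTTCC and 0 to the consensus.
Cxcl9: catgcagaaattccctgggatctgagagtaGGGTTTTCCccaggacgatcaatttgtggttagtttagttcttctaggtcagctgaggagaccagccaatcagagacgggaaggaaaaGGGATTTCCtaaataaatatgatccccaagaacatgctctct
Cxcl10: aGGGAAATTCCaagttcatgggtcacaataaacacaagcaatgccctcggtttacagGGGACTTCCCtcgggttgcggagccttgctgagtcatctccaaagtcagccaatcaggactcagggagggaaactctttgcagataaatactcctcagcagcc
A shortened interferon-response motif, GAAANNGAA, lay further upstream in both, from −175 in Cxcl9 and from −213 in Cxcl10. It also lay in Cxcl14, from −172, and in 7.13% of the 32851 promoters.

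**Figure D3:**
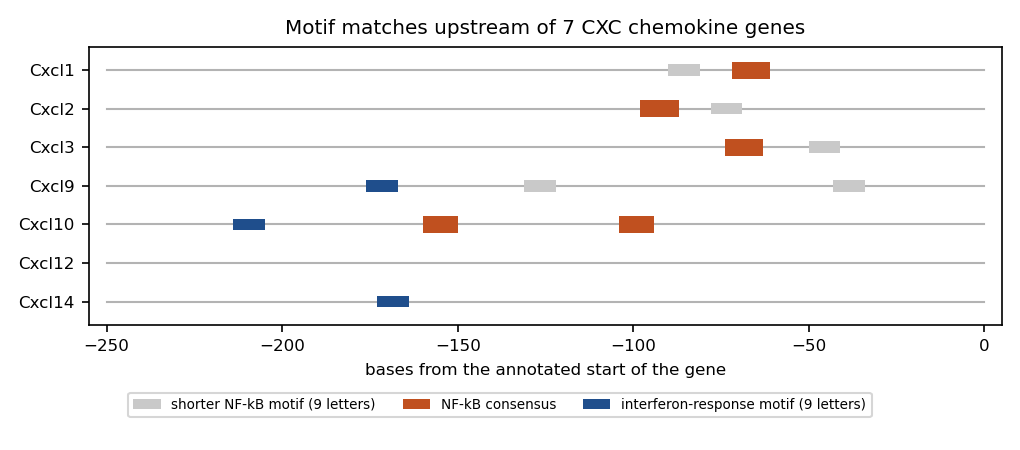
Position of motif matches in the 250 bases before the annotated start of 7 members, with the distance in bases on the x axis and a line per gene. The tall boxes are the NF-kB consensus and the low boxes the 9-letter motifs GGNNNTTCC (light) and GAAANNGAA (dark), on either strand. Cxcl1, Cxcl2, Cxcl3 and Cxcl10 hold the NF-kB consensus, and Cxcl12 holds none of the 3 motifs.

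Without TNF, 1 of 7 members compared was lower on the cKO-labelled array, 0 were higher, and the lower one was Cxcl10. Over all 24277 genes compared, 3.51% were higher and 4.40% lower, and with patches left out 231 of 18380 were higher and 196 lower. The Cxcl10 difference was −1.25 (2.38-fold lower, technical SD 0.27) and rests on the spot in the patch. It was −0.37 with normexp background correction, and no member passed the limit with patches left out. The median of the 6 members detected on both arrays was −0.68, against 0.00 over all such genes. Cxcl1 differed by −0.78 (1.72-fold lower, technical SD 0.27) and Cxcl5 by −0.57 (1.49-fold lower, technical SD 0.12), both short of the limit.

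With TNF, 3 of 8 members compared were lower on the cKO-labelled array than on the control array (Cxcl1, Cxcl5 and Cxcl12) and 0 were higher, beside 3.21% of all 24513 genes lower and 1.16% higher. The balance over all genes turned with patches left out, with 198 higher and 181 lower of 19124, and the 3 members were lower there too. Cxcl1 was 4.93-fold lower (log2 difference −2.30, technical SD 0.12), Cxcl12 3.98-fold lower and Cxcl5 3.70-fold lower (−1.89, technical SD 0.09). Among 13544 genes with a symbol and no spot in a patch, these were the 24th, 30th and 33rd largest falls, and over all genes compared the 379th, 420th and 443rd. The median of the 7 members detected on both arrays was −0.52, against 0.05 over all such genes. Each array enters 1 TNF comparison and 1 comparison of labels, so these values are not independent of the TNF changes given above.

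**Figure D4:**
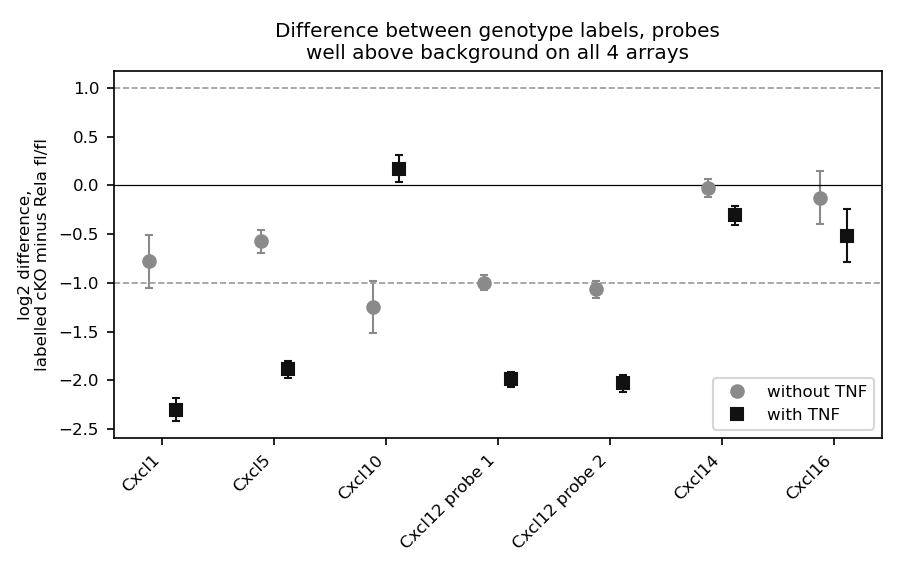
Log2 difference, cKO-labelled array minus control array, without TNF (grey circles) and with TNF (black squares), for the 7 member probes well above background on all 4 arrays. Bars are the technical SD of a difference between 2 single spots and dashed lines the limit of 1. Cxcl1, Cxcl5 and both Cxcl12 probes lay further below 0 with TNF than without, and Cxcl10 lay below 0 without TNF only.

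Cxcl12, known as SDF-1, was lower on the cKO-labelled arrays with and without TNF, by 2-fold or close to it without TNF and by more with it. Its probe annotated to NM_001012477 read 25.8 without TNF and 40.9 with TNF in control cells, and 12.9 and 10.3 on the cKO-labelled arrays. Both control arrays lay above both cKO-labelled arrays. The probe annotated to NM_021704 gave the same order of arrays, at 5.75 and 8.14 in control cells and 2.75 and 1.99 on the cKO-labelled arrays.

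The difference between labels without TNF was −0.999 (technical SD 0.08) on the first probe, just short of the limit, and −1.07 (technical SD 0.09) on the second, just past it. With TNF it was −1.99 and −2.03. The first probe, the brighter one, stood for the gene in the counts. With TNF, the signal was 1.59-fold and 1.42-fold higher in control cells (log2 differences 0.66 and 0.50) and lower on the cKO-labelled arrays (−0.33 and −0.46), none of them past the limit. Both probes thus gave changes of opposite sign in the 2 genotype labels, each at least 4 times its technical SD.

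The promoter of Cxcl12 on chromosome 6 (chr6:117168375-117168534, plus strand, GRCm38.p6) is shown as the contrast to those above, since it holds 0 matches to any of the 3 motifs.
Cxcl12: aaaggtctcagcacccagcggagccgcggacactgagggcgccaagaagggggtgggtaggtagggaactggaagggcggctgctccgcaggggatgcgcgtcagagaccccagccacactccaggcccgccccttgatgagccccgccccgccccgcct
No match says only that these letters are not in this window.

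Cxcl14 and Cxcl16 stayed within the limit in all 4 comparisons. Cxcl14 (NM_019568), also called BRAK, read 3.43 and 3.96 in control cells without and with TNF and 3.37 and 3.20 on the cKO-labelled arrays. Its log2 differences ran from −0.31 between labels with TNF to 0.21 with TNF in control cells (technical SD 0.09 each), the former 3.26 times its technical SD. Cxcl16 (NM_023158) read 0.138 and 0.186 in control cells and 0.126 and 0.130 on the cKO-labelled arrays. Its log2 differences ran from −0.52 between labels with TNF to 0.43 with TNF in control cells, under 2 times the technical SD of 0.27. The technical SD covers spots only, so this does not show that the levels were equal.

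The TNF response was then compared between the labels as the difference of the 2 log2 changes, over the 6 members detected on all 4 arrays. It passed 1 log2 unit in Cxcl1 (−1.52, technical SD 0.30), Cxcl5 (−1.31, technical SD 0.15) and Cxcl10 (1.42, technical SD 0.31). No share over all genes is given for this value, so the number of members past 1 is not read as a result. A negative value means a smaller change on the cKO-labelled arrays. Cxcl12 came next at −0.99 and −0.96 on its probes (technical SD 0.11 and 0.12), and passed 1 without scaling. Cxcl14 gave −0.28 (technical SD 0.13) and Cxcl16 −0.39 (technical SD 0.38). The value of Cxcl10 rests on the spot in the patch. With normexp background correction its log2 changes were 0.78 and 1.24, so that it no longer passed 1.

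**Figure D5:**
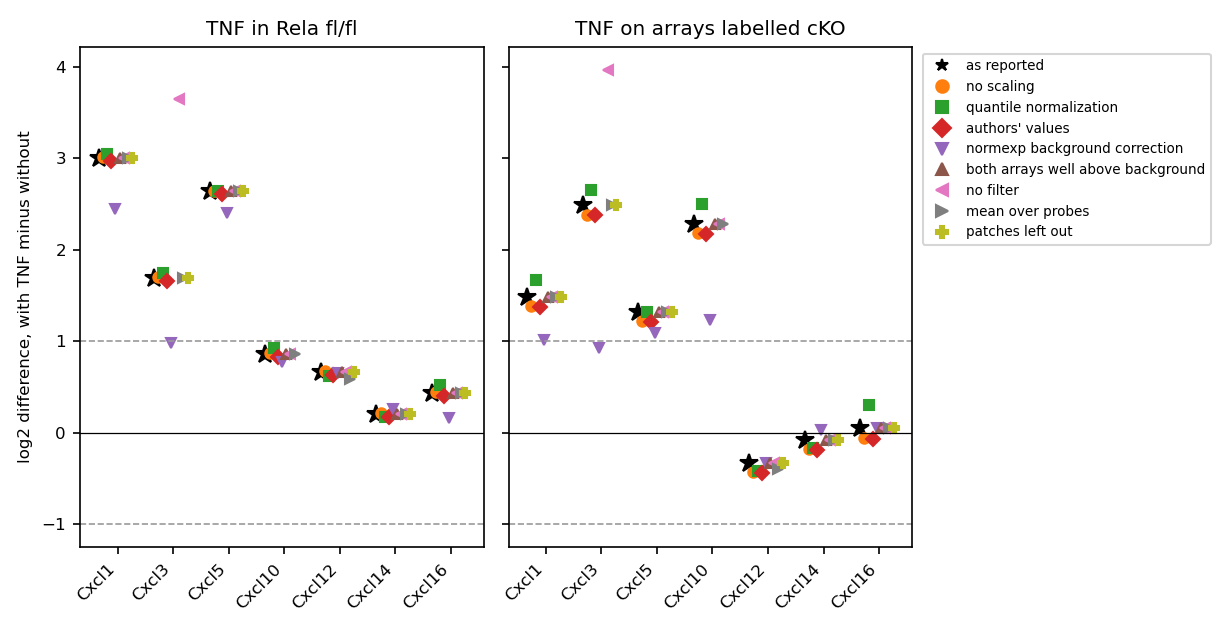
Log2 difference with TNF minus without for 7 members under the reported processing (stars) and each alternative, in control cells (left) and on the cKO-labelled arrays (right), with the limit of 1 dashed. Cxcl1 and Cxcl5 stayed above 1 in both panels. Cxcl3 fell just below 1 with normexp background correction (0.99 and 0.93), and Cxcl10 on the cKO-labelled arrays went from 2.28 to 1.24.

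Genes with a similar pattern over the 4 arrays were found by the Euclidean distance between the 4 log2 values, each gene centred on its own mean, among 9664 genes detected on all arrays with no spot in a patch. Cxcl1 and Cxcl5 were each other's nearest gene, at a distance of 0.418 log2 units. Next to Cxcl1 came the complement gene C3 (1.002) and Ecscr (1.06), and next to Cxcl5 came Cck (0.653) and Ecscr (0.724). Nearest to Cxcl12 were Sntg2 (0.337), Lrg1 (0.379) and the protease inhibitor Slpi (0.390). Nearest to Cxcl10, whose own pattern includes its spot in a patch, were Il34 (0.747), Il1rl1 (0.874) and Plvap (0.901). The flat patterns had closer neighbours, Acadsb (0.0389), B3gntl1 (0.0396) and Ulk1 (0.0407) for Cxcl14 and Antxr1 (0.0362), Sod2 (0.0523) and Il6st (0.0527) for Cxcl16. The likeness is over 4 arrays only.

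Among the receptors of the members, Ackr3 was the one detected on all 4 arrays. This scavenger receptor of Cxcl12 read 3.17 and 4.95 in control cells without and with TNF (log2 difference 0.64) and 3.47 and 3.35 on the cKO-labelled arrays. Cxcr2, Cxcr3 and Cxcr4, the signalling receptors of the neutrophil, interferon-inducible and stromal members, were not well above background on any array. For Cxcr6, the receptor of Cxcl16, 1 of 2 probes was detected on the cKO-labelled arrays, at 0.0765 and 0.0417. Of the 8 receptors on the list, 6 were detected on no array and 0 passed the limit in any of the 4 comparisons. Of 5 enzymes that cut or shed chemokines, Adam10, Adam17 and Dpp4 were detected on all arrays, and 0 passed the limit.

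Of 5 other CXC ligands, Cxcl13, Cxcl15 and Cxcl17 were detected on no array. Ppbp, the platelet chemokine next to Cxcl5, was higher with TNF in control cells (log2 difference 1.33, from 0.107 to 0.270). It was also higher between labels without TNF (1.23), where its spot on the cKO-labelled array lay in a patch.

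Of 22 NF-kB target genes, 18 were compared with TNF in control cells. Of these, 9 were higher and 0 lower, beside 2.39% of all genes higher and 4.27% lower. The median over those detected on both arrays was 0.95 log2 units, against 0.01 over all such genes. The higher ones were Saa3 (at least 7.48), Ccl2 (5.02), Ccl7 (3.44), Ccl5 (3.39), Il6 (at least 2.88), Tnfaip3 (1.78), Nfkbia (1.51), Lcn2 (1.36) and Relb (1.02), the Ccl2 spot with TNF lying in a patch. Saa3 and Il6 entered through the array where they were high. On the cKO-labelled arrays 3 of 18 compared were higher with TNF, Ccl2 (3.17), Ccl5 (2.98) and Lcn2 (1.18), beside 1.02% of all genes. The median was 0.30, against 0.06 over all genes, and the spots of Ccl2 and Lcn2 without TNF lay in a patch. Between the labels with TNF, 7 of 19 compared were lower on the cKO-labelled array, beside 3.21% of all genes lower and 1.16% higher. They were Saa3 (log2 difference at most −8.57), Il6 (−3.86), Ccl5 (−2.02), Ccl2 (−1.86, on the spot in the patch), Ccl7 (−1.62), Icam1 (−1.39) and Tnfaip3 (−1.35). Ptgs2 was higher (1.04), its spot on the control array lying in a patch. Without TNF 17 were compared, and Ccl5 was lower (−1.61) and Ccl7 higher, on a spot in a patch (1.52). Over all genes 4.40% were lower and 3.51% higher.

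Of 18 interferon-response genes, 17 were on the array. In control cells 2 of 16 compared were higher with TNF, beside 2.39% of all genes. They were the guanylate-binding protein gene Gbp2 (2.07) and Ifi44 (1.52, on a spot in a patch), and the median of the list was 0.20. On the cKO-labelled arrays 0 of 16 compared were higher, and Gbp3 was lower (−2.11), where its spot without TNF lay in a patch. Over all genes 1.02% were higher and 4.46% lower there, and the median of the list was 0.00. Cxcl10 was higher there by 2.28. Between labels with TNF, 5 of 17 compared were lower on the cKO-labelled array, beside 3.21% of all genes. They were Ifi44 (−1.95, on the spot in the patch), Oasl2 (at most −1.91), Gbp2 (−1.82), Ifit1 (−1.08) and Isg15 (−1.05), whereas Cxcl10 differed by 0.17. Without TNF 15 were compared, and Isg15 was lower (−1.10) and Gbp3 higher (1.92, on the spot in the patch), beside 4.40% of all genes lower and 3.51% higher.

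Leukocytes and endothelial cells also make CXC chemokines, and their markers were read in the same arrays. The pan-leukocyte marker Ptprc and Cd52 were not well above background on any array, nor were the endothelial markers Cdh5 and Tek or the neutrophil genes S100a8, S100a9 and Mmp8. Detected on all 4 arrays were 2 of 5 neutrophil markers (Csf3r and Elane) and 2 of 6 endothelial ones (Kdr and Pecam1). Of 11 leukocyte markers on the array, 6 were detected on all 4 arrays. The summed signal of the 11 was 40.0 and 36.8 in control cells without and with TNF and 44.8 and 36.0 on the cKO-labelled arrays, most of it from Itgam (31.8 to 40.4). In control cells with TNF, Laptm5 was higher (1.51) and Lyz2 (−1.42) and Cx3cr1 (at most −1.62) were lower, each with 1 spot in a patch. On the cKO-labelled arrays, Adgre1 was lower with TNF (−3.48, on a spot in a patch). Between labels with TNF, Laptm5 was lower (at most −2.88, on the same spot in a patch), and without TNF Adgre1 was higher (2.87) and Lyz2 (−2.11), Cx3cr1 (at most −2.14), Tyrobp (at most −1.61) and Laptm5 (at most −1.41) were lower, the first 3 of these 5 each with a spot in a patch. The 5 neutrophil markers on the array summed to 77.5, 78.2, 107 and 77.9 in the same order of arrays, and the 6 endothelial markers to 18.5, 18.1, 17.9 and 20.7, with 0 neutrophil markers past the limit in any comparison and Emcn alone of the endothelial ones, on a spot in a patch. A single probe made up most of each sum, Csf3r among the neutrophil markers (69.9 to 99.98) and Kdr among the endothelial ones (17.5 to 20.6). The part of such cells in the results was not tested.

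Chondrocyte markers summed to 1818 and 1719 in control cells without and with TNF and to 1408 and 1443 on the cKO-labelled arrays. With TNF their median differed by −0.38 between the labels, and Matn1 was lower on the cKO-labelled array (−1.19). Without TNF the median differed by −0.56, with Matn1 (−1.86) and Col9a2 (−1.07) lower. Fibroblast markers summed to 904 and 951 in control cells and to 782 and 809 on the cKO-labelled arrays, with a median of −0.33 between the labels with TNF and −0.31 without it, where Thy1 was lower (−1.59). The medians of both lists had the sign of the Cxcl12 difference. The part of these cells in the Cxcl12 difference was not tested.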

How the data were processed

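RNA of 4 cultures was hybridised to SurePrint G3 Mouse arrays, 1 array per condition. Spot intensity values were deposited by the authors as written by Agilent Feature Extraction 10.10.1.1, with background subtracted and trends removed, and a table of scaled values used as an alternative. Here, outlier spots were left out, and the log2 intensity was lowered by the 75th percentile over all transcript spots on that array. Symbols were matched through RefSeq transcripts of GRCm38.p6, while the array files name mm9, so the table gave names, neighbours and promoters only. For 55619 probes, repeated spots were averaged, and a gene was read by its brightest probe. The rule for named genes took all members, Rela, the receptors of the members, genes of the CXC, interferon and NF-kB lists past the limit, and the 3 nearest genes of each member. Markers and other genes were named after their values were seen. The members, lists and patch rule were chosen with earlier results of these data known. The counting was tested on simulated data with changes past the limit planted in bright probes only, so the test does not cover dim spots. Alternatives were no scaling, quantile normalization, the authors' values, normexp (offset 50), other filters, limits of 1.5-fold and 3-fold, the mean over probes, and patches left out (spots with 3 or more bright neighbours in 11 rows by 5 columns). The work was done in R 4.3.3 (limma 3.58.1) and Python 3.11.15 (pandas 2.3.3).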

Additional observations from a re-analysis of the deposited data

Results flagged for a closer look

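Cxcl12 is given here because its TNF change had opposite signs in the 2 genotype labels on both of its probes. The probe annotated to NM_001012477 changed by 0.66 log2 units with TNF in control cells and by −0.33 on the cKO-labelled arrays. The probe annotated to NM_021704 changed by 0.50 and −0.46. With 1 array per condition the difference was not tested.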

How the results depend on the processing

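No paired analysis was possible with 1 array per condition. A fit of genotype plus TNF without their interaction was not made. The number of members past the limit stayed within 1.5 times the reported one in 40 recomputed counts and moved further in 8, and no member difference past the limit as reported changed sign. Between labels, Cxcl9 rests on the lowest detected signal of an array and has no settled sign, with values from −1.47 (mean over probes) to 1.07 (no filter) without TNF and from −1.24 to 0.42 in the same settings with TNF. Of differences short of the limit, signs changed for Cxcl14 (between labels without TNF, −0.02 and 0.03 without scaling, and with TNF on the cKO-labelled arrays, −0.07 and 0.03 with normexp) and for Cxcl16 there (0.05 and −0.06 without scaling or with the authors' values). With TNF in control cells, 5 members were higher at a limit of 1.5-fold, where 3 were reported. On the cKO-labelled arrays, 2 were higher at 3-fold, where 4 were reported. Between labels without TNF, where 1 was reported, 0 passed with normexp background correction, at 3-fold or with patches left out, 2 passed with no filter or with the mean over probes, and 3 passed at 1.5-fold. The difference of the TNF response was past 1 in 3 members as reported, in 4 without scaling, with quantile normalization or with the authors' values, and in 2 (without Cxcl10) with normexp or with patches left out. These counts have no share over all genes beside them and show only how the members moved with the setting. Of the single differences, 25 moved by more than the technical spread. The median over all genes with TNF on the cKO-labelled arrays was 0.06 as reported and −0.05 without scaling or with the authors' values. Counts over all genes moved more, from 99 to 1346 higher (560 reported) and 119 to 2361 lower (999) with TNF in control cells, from 60 to 1352 (255) and 301 to 2322 (1110) on the cKO-labelled arrays, from 231 to 2312 (852) and 196 to 1916 (1068) between labels without TNF, and from 83 to 2118 (285) and 181 to 1538 (787) with TNF. The cause of these moves was not tested. Dim spots limit Cxcl2, Cxcl3 and Cxcl9, and 1 array per condition limits every value.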
